A study of Mus musculus with 4 samples.

Results

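Transcription factors that direct cartilage, bone and tendon formation, or connective tissue more broadly, were followed in cultured mouse muscle cells labelled as satellite cells. The genes were Sox5, Sox6, Sox8, Sox9, Runx1, Runx2, Twist1, Twist2, Scx and Mkx. They were chosen by gene name, and each of the 10 matched 1 of the 54446 rows of the expression table. The cells were hindlimb satellite cells of C57BL/6 mice, kept in F10 medium with 10% HS and harvested after 48 h of siRNA treatment. The 2 groups received siRNA against the long non-coding RNA LncMyoD or control siRNA, with 2 samples each and the same strain, source and medium. The age of the mice, and whether replicates came from separate animals or cultures, are not given, so each p-value reflects the scatter of these 4 libraries alone, which may be technical. For the controls, too, the treatment text names LncMyoD as the siRNA target. Of the rows, 0 carried the name LncMyoD, so its level was not analysed here, and the groups rest on titles, descriptions and treatment tags.

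In the limb, muscle, cartilage, bone and tendon cells all derive from mesoderm, and each lineage is set by its own DNA-binding factors. Sox9 starts cartilage formation and acts with Sox5 and Sox6, Runx2 is required for bone, and Scx and Mkx act in tendon. Several of these factors also have roles in muscle: Sox8 and Sox9 have been linked to restraint of myogenic differentiation, Sox6 represses slow fibre genes, Runx1 acts in regenerating muscle, and the Twist proteins oppose MyoD. Satellite cells are committed to muscle.

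The members divided into a group with clear transcript levels and a group near or at 0. Levels are given as FPKM, a fragment count divided by transcript length and by library depth, which allows genes of different length to be set side by side. Over the 4 libraries Sox9 ranged from 25.5 to 30.3 FPKM, Scx from 12.6 to 18.6, Runx1 from 9.61 to 11.6, Runx2 from 4.75 to 5.82 and Sox8 from 2.40 to 4.10. Mkx ranged from 0.134 to 1.83 FPKM. Sox6 stayed at or below 0.338 FPKM, Twist2 at or below 0.291 and Sox5 at or below 0.114, and Twist1 was listed at 0 in all 4 libraries.

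The order of the upper members was the same in every library. The ranges of neighbours did not overlap from Sox9 to Scx, Scx to Runx1, Runx1 to Runx2, Runx2 to Sox8, and Sox8 to Mkx. The ratio of neighbouring means was 1.85 for Sox9 over Scx, 1.43 for Scx over Runx1, 2.09 for Runx1 over Runx2 and 1.69 for Runx2 over Sox8. Below Mkx the ranges of neighbouring members overlapped, and no order was read from them. Among the 10900 genes that averaged 1 FPKM or more, the mean of Sox9 exceeded 80.6%, that of Scx 68.3%, that of Runx1 60.3%, that of Runx2 42.2% and that of Sox8 28.2%.

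**Figure D1:**
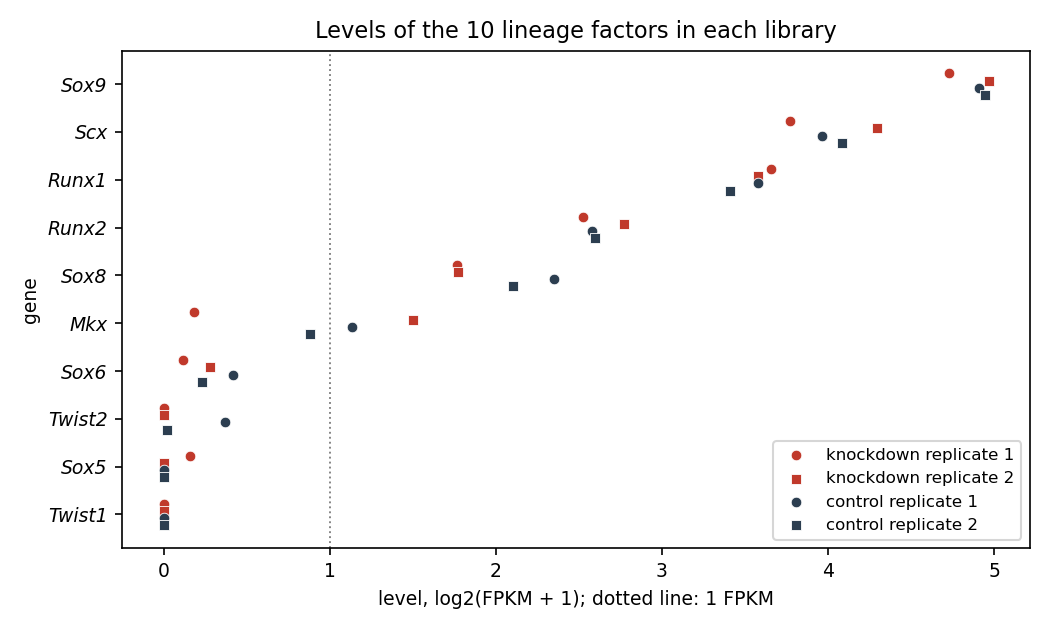
Level of each of the 10 factors on the horizontal axis as log2(FPKM + 1), with 1 point per library (red, LncMyoD knockdown; dark blue, control; circles, replicate 1; squares, replicate 2), and the dotted line at 1 FPKM. Sox9, Scx, Runx1, Runx2 and Sox8 lie above the line in all 4 libraries, Mkx lies on both sides of it, and Sox6, Twist2, Sox5 and Twist1 lie below it.

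In these cells 0 of the 6 factors tested passed between knockdown and control, and the 4 factors near or at 0 were not in that test. The 6 factors that averaged 1 FPKM or more were Sox9, Scx, Runx1, Runx2, Sox8 and Mkx, and these were read from a limma fit over all 10900 genes. That fit called 6 genes, 0.055% of those tested, at a Benjamini-Hochberg adjusted p under 0.05. At an unadjusted p under 0.05 it gave 0 of the 6 factors and 772 genes overall. The adjusted p-values of the 6 factors lay between 0.698 and 0.997. Fold changes below subtract the control mean from the knockdown mean after log2(FPKM + 1), a scale that shrinks the differences of genes with low values.

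The upstream DNA of 3 members is shown so that it can be read beside their levels: Sox8, the tested factor with the lowest unadjusted p (0.0647); Runx2, measured at an intermediate level; and Twist1, listed at 0. Each run is the 250 bases before the RefSeq start on GRCm38.p6, 5′ to 3′ on the gene's own strand, and lies at chr17:25570687-25570936 (minus strand) for Sox8, chr17:44814628-44814877 (minus) for Runx2 and chr12:33957421-33957670 (plus) for Twist1. Capitals mark CANNTG, the general form of the E-box letters recognised by MyoD, Scx and Twist proteins, and TATAAA, the TATA-box letters. Binding of any factor to these stretches was not tested. The annotated Runx2 gene reaches 44814797 and has 13 transcripts, so the RefSeq start used is not its outermost start. Part of the Runx2 window, including its marked CANNTG, therefore lies inside the annotated gene.
Sox8: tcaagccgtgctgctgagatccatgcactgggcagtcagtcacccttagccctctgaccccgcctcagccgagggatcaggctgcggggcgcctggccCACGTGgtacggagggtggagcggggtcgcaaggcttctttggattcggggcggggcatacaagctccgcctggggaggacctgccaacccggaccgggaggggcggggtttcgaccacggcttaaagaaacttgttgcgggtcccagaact
Runx2: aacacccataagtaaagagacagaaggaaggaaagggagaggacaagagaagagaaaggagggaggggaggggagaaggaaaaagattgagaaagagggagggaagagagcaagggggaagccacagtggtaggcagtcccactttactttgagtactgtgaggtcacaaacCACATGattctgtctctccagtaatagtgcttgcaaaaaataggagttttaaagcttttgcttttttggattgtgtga
Twist1: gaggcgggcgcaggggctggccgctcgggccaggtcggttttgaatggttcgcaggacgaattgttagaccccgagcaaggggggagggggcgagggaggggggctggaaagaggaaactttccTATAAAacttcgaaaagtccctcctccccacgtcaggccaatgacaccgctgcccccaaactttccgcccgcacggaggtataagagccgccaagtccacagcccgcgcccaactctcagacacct
Searched on both strands, CANNTG stood 1 time in the Sox8 window, beginning 152 bases before the start, and 1 time in the Runx2 window, beginning 78 bases before it, and 0 times in the Twist1 window. It is present in 66.2% of all 32851 such windows. The form CAGCTG stood 0 times in the Sox8, Runx2 and Twist1 windows and is in 13.0% of all windows. TATAAA stood 1 time in the Twist1 window, beginning 126 bases before the start, and is in 12.4% of windows. The GC content was 65.6% for Sox8, 44.8% for Runx2 and 62.4% for Twist1, against a median of 52.4%. These letters are a description of the windows, and 7 of the 10 members had a window in the table used.

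The SoxE pair, Sox8 and Sox9, are close relatives that share target sequences. Sox8 (chromosome 17, 25565892 to 25570686, minus strand) measured 2.40 and 2.42 FPKM after LncMyoD siRNA and 4.10 and 3.31 after control siRNA. Both knockdown values lay below both control values. The knockdown mean was 2.41 ± 0.0161 FPKM against 3.70 ± 0.558 in control (SD, n = 2), a ratio of 0.651. The log2 fold change was -0.46 ± 0.20 (SE), with a 95% interval of -0.95 to 0.038, and by limma the adjusted p was 0.698. Groups that lay apart with knockdown lower occurred in 16.3% of all tested genes, so 1 of 6 factors in this state is close to the background.

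The depth behind Sox8 was modest. If its fragments came from the longest annotated transcript of 3000 bases, its values equal the bases of 264 and 298 reads of 150 nt in knockdown and 481 and 387 in control. Shorter transcripts would mean fewer reads. Of the annotated exonic bases of Sox8, 10.6% also lie in the antisense transcript 2810468N07Rik, which starts inside the first exon and runs the other way; the strand setting is unknown, so reads of that stretch cannot be told apart. 2810468N07Rik measured 1.37 and 1.12 FPKM against control values of 1.63 and 1.38 (log2 fold change -0.16, limma adjusted p 0.903).

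Sox9 (chromosome 11, 112782224 to 112787760, plus strand), the founding factor of cartilage, measured 25.5 and 30.3 FPKM after LncMyoD siRNA and 29.0 and 29.8 after control siRNA. The control values fell between the knockdown values. The log2 fold change was -0.078 ± 0.13 (SE), with a 95% interval of -0.40 to 0.24 (limma adjusted p 0.927). Sox9 has 1 annotated transcript, and its values equal the bases of 3872 to 5139 reads. Its interval was the narrowest among the 6 tested factors.

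Sox5 and Sox6, the SoxD factors that work beside Sox9 in cartilage, were under the filter and were not in the fit over 10900 genes. Sox6 values were 0.0865 and 0.214 FPKM with knockdown and 0.338 and 0.177 with control siRNA, and the groups overlapped. Sox5 had 0.114 FPKM in knockdown replicate 1 and was listed at 0 in the other 3 libraries. In each library Sox9 was thus far above both SoxD transcripts.

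The Runx factors bind DNA together with Cbfb. Runx1 (chromosome 16, 92601466 to 92826149, minus strand), known from blood formation and from injured muscle, measured 11.60 and 10.970 FPKM after LncMyoD siRNA and 10.963 and 9.61 after control siRNA. The groups did not overlap, but the lower knockdown value was almost equal to the higher control value. Its log2 fold change was 0.12 ± 0.15 (SE), with a 95% interval of -0.25 to 0.50 (limma adjusted p 0.892). Groups apart with knockdown higher occurred in 22.1% of tested genes, and Runx1 was the 1 factor of 6 counted there.

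Runx2 (chromosome 17, 44495987 to 44814797, minus strand), required for osteoblasts, measured 4.75 and 5.82 FPKM after LncMyoD siRNA and 4.99 and 5.07 after control siRNA. Again the controls lay between the knockdown values. The log2 fold change was 0.055 ± 0.19 (SE), with a 95% interval of -0.40 to 0.51 (limma adjusted p 0.963). The antisense transcript Runx2os1, which shares 5.87% of the exonic bases of Runx2, stood at a similar level, with 5.28 and 5.41 FPKM against 5.14 and 5.32. Here too, reads of the shared stretch cannot be told apart. Supt3, a protein-coding gene on the opposite strand that overlaps Runx2 but shares 0 of its exonic bases, was read at 3.49 and 4.03 FPKM with knockdown and 4.35 and 2.33 with control siRNA. For Cbfb, the shared partner, the knockdown libraries gave 61.9 and 40.1 FPKM and the controls 30.5 and 52.6, so its groups overlapped (log2 fold change 0.31, limma adjusted p 0.860).

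Scx and Mkx stand for the tendon lineage. Scx (chromosome 15, 76457452 to 76459458, plus strand), scleraxis, measured 12.6 and 18.6 FPKM after LncMyoD siRNA and 14.6 and 16.0 after control siRNA. The knockdown values lay on either side of the controls, with a log2 fold change of 0.0070 ± 0.20 (SE) and a 95% interval of -0.48 to 0.50 (limma adjusted p 0.997). Scx lies within the body of Bop1, a ribosome biogenesis gene on the opposite strand, and shares 0 exonic bases with it. Bop1 was higher than Scx in every library, at 43.7 and 51.3 FPKM with knockdown and 63.8 and 54.7 with control siRNA (log2 fold change -0.31, limma adjusted p 0.698).

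Mkx (chromosome 18, 6934518 to 7004780, minus strand), mohawk, a tendon homeobox factor, measured 0.134 and 1.83 FPKM after LncMyoD siRNA and 1.20 and 0.843 after control siRNA. Its 2 knockdown libraries were the lowest and the highest of the 4. The log2 fold change was -0.17 ± 0.44 (SE), with a 95% interval of -1.25 to 0.91 (limma adjusted p 0.953), the widest interval of the 6. Its mean was 1.0005 FPKM, just inside the filter, and the next member by level, Sox6, lay outside it at 0.204. Without knockdown replicate 1 the log2 fold change was 0.49, and without knockdown replicate 2 it was -0.83.

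The bHLH factors Twist1 and Twist2, which bind E-boxes with E proteins, were at or near 0. Twist1 has 1 annotated transcript of 1628 bases, and at this depth 3 reads, the limit that a count of 0 allows, would give 0.0449 to 0.0503 FPKM. Of 20 widely expressed genes, chosen after the values were seen, 0 were listed at 0 in any library. Such abundant genes could hardly be at 0, so that count does not bear on Twist1. Across all 54446 rows, 29477 were listed at 0 in every library. Twist2 was listed at 0 in both knockdown libraries and at 0.291 and 0.0138 FPKM in the controls, and the second of these equals at most 1.36 reads. The 3 E-protein genes Tcf3, Tcf4 and Tcf12 and the inhibitors Id1 to Id3 were the 6 of the 7 tested genes of the partner list that bind or block such bHLH factors. Of these 7, 5 had positive and 2 negative fold changes, and 0 passed. The knockdown libraries held 226 and 285 FPKM of Id3 and both controls 242 (limma adjusted p 0.934). For Tcf3 the values were 11.9 and 17.0 with knockdown and 10.5 and 12.1 with control siRNA (limma adjusted p 0.771). Id1 and Id2, at 108 to 150 and 185 to 210.2 FPKM, had log2 fold changes of -0.17 and 0.0087.

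**Figure D2:**
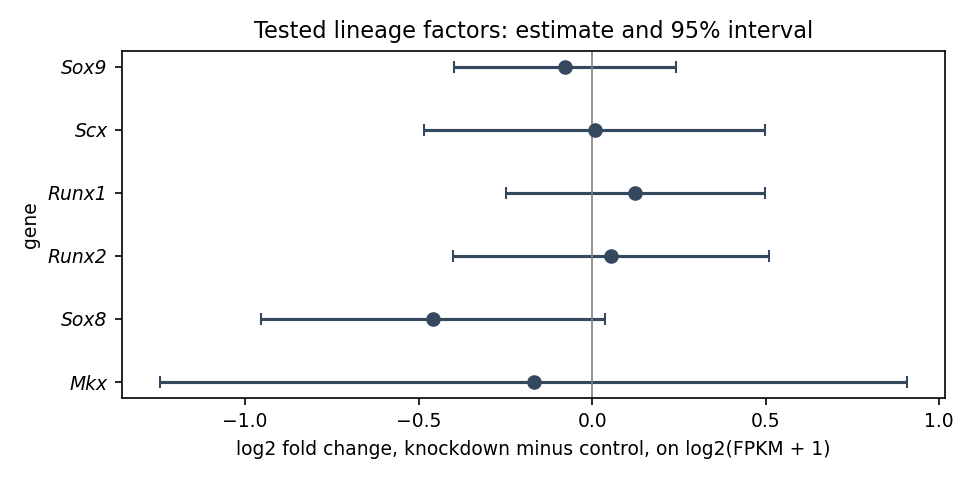
Log2 fold change (knockdown minus control, on log2(FPKM + 1)) of the 6 tested factors on the horizontal axis, with points for the limma estimate and bars for its 95% interval. All 6 intervals include 0; that of Sox8 reaches from -0.95 to 0.038 and that of Mkx is the widest.

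A pattern between replicates ran through the tested factors. In 4 of the 6, Sox9, Scx, Runx2 and Mkx, knockdown replicate 1 was the lowest of the 4 libraries and knockdown replicate 2 the highest. The same arrangement was found in 12.7% of all tested genes. Knockdown replicate 2 was also the deepest library and knockdown replicate 1 the shallowest, with 41.1 and 36.7 reads behind 1 FPKM on a transcript of 1 kb against 39.0 and 39.2 in the controls. The median ratio factor, a measure of overall scale, was 1.03 in the former, 1.00 in the latter and 0.996 in both controls, so by this measure knockdown replicate 1 was not the lowest. The part of either measure in this pattern was not tested.

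The log2 fold changes followed these libraries. Without knockdown replicate 1 the values were 0.040 for Sox9, 0.27 for Scx and 0.18 for Runx2, and without knockdown replicate 2 they were -0.20, -0.25 and -0.068. Sox8 kept a negative value with each library left out, from -0.58 to -0.34, and Runx1 a positive one, from 0.038 to 0.21.

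**Figure D3:**
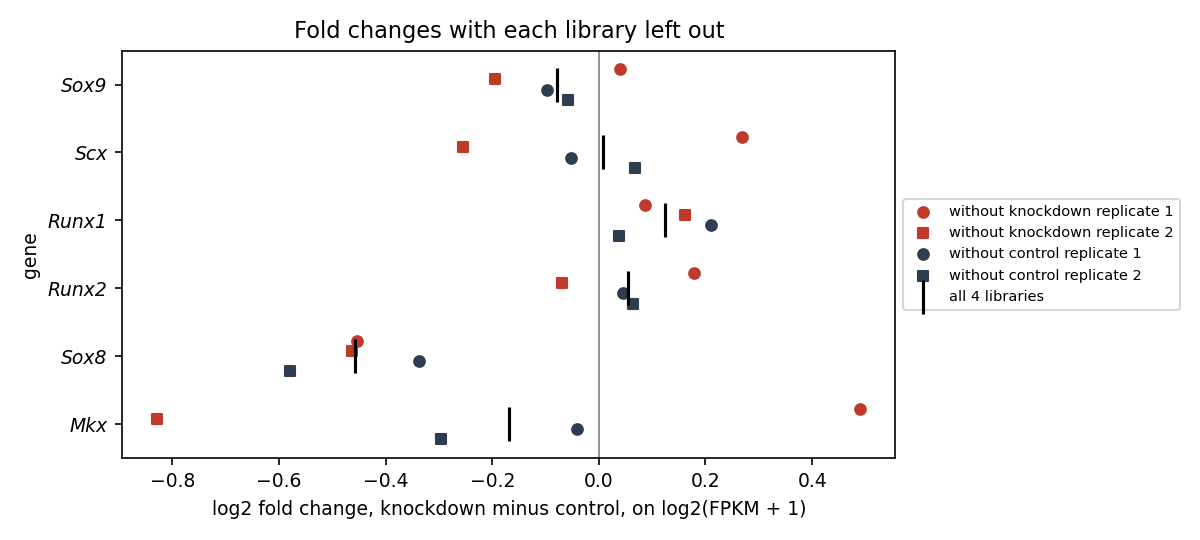
Log2 fold change of the 6 tested factors on the horizontal axis with all 4 libraries (black bars) and with 1 library left out (red, a knockdown library; dark blue, a control library). The values for Sox8 stay between -0.58 and -0.34, while those of Scx and Mkx fall on both sides of 0.

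The genes that these factors act on, or that mark the lineages, mostly averaged under 1 FPKM. Of 59 cartilage, bone and tendon genes listed for this purpose, 16 had a mean of at least 1 FPKM and 0 passed the limma test in either direction, against 0.055% of all tested genes called; 3, all on the tendon list, had an unadjusted p under 0.05, beside 7.08% of all tested genes. Of 21 cartilage genes, 1 was tested and 11 were listed at 0 in every library. Col2a1, the main collagen of cartilage, and Col9a1, Matn1 and Cnmd were listed at 0 in all 4, and Acan, which codes for aggrecan, reached 0.00956 FPKM in 1 library, the bases of at most 2.89 reads. Matn3, a cartilage matrix protein and the 1 tested gene, measured 1.85 and 1.22 FPKM with knockdown and 2.58 and 1.42 with control siRNA. Sox9 was thus measured beside defining cartilage transcripts at or near 0.

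Bone genes gave a mixed picture beside Runx2. Of 21 genes, 4 were tested, with 2 positive and 2 negative values and 0 called. Spp1, osteopontin, a secreted protein made in bone and in other cells, measured 474 and 462 FPKM with knockdown and 470.3 and 466 with control siRNA, a difference smaller than the spread between replicates. Sparc, a collagen-binding matrix protein, gave 278 and 297 FPKM, and 331 and 320 in the controls (log2 fold change -0.18), and Pdpn, podoplanin, gave 75.2 and 73.6, and 64.9 and 64.3 in the controls (0.20), with limma adjusted p-values of 0.701 and 0.708. Dmp1, a protein of mineralised matrix, was read at 8.40 and 6.28 FPKM with knockdown and 6.19 and 6.06 with control siRNA. Bglap and Ibsp, osteoblast products, were listed at 0 in every library, and Alpl did not exceed 0.00627 FPKM.

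Of 17 tendon genes, 11 were tested, with 6 positive and 5 negative values, 0 called and a median log2 fold change of 0.066, beside 0.026 over all tested genes. Tnmd, tenomodulin, which depends on Scx in tendon, and Thbs4 and Kera were listed at 0 in every library. Fmod, fibromodulin, was read at 1.85 and 1.52 FPKM with knockdown and 1.94 and 2.44 with control siRNA. Tnc, tenascin C, was read at 17.0 and 20.1 FPKM with knockdown and 10.3 and 11.2 with control siRNA (log2 fold change 0.73, SE 0.15). Egr1, an early response factor that can promote tendon genes, was read at 52.1 and 54.0 FPKM with knockdown and 68.7 and 83.6 with control siRNA (log2 fold change -0.51, SE 0.13). The groups of both lay apart, but the limma adjusted p was 0.523 for Tnc and 0.573 for Egr1. Of the 11 tested genes, 4 lay apart with knockdown higher and 4 with knockdown lower. Over all tested genes these states occurred in 22.1% and 16.3%. The list was chosen with earlier results of these data known, so these counts are not a test. The tendon list also held genes of the matrix and its signals that other connective tissues share. The collagen gene Col1a1 averaged 2.69 ± 0.723 FPKM with knockdown and 4.23 ± 0.666 with control siRNA (SD, n = 2), and both knockdown values lay below both controls (log2 fold change -0.51, limma adjusted p 0.698; -0.71 to -0.31 with 1 library left out). Ctgf had a log2 fold change of 0.33 with the same adjusted p, Col3a1 0.25, Bgn 0.066 and Htra3 -0.15. Col1a1 and Ctgf were chosen after their values were seen.

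**Figure D4:**
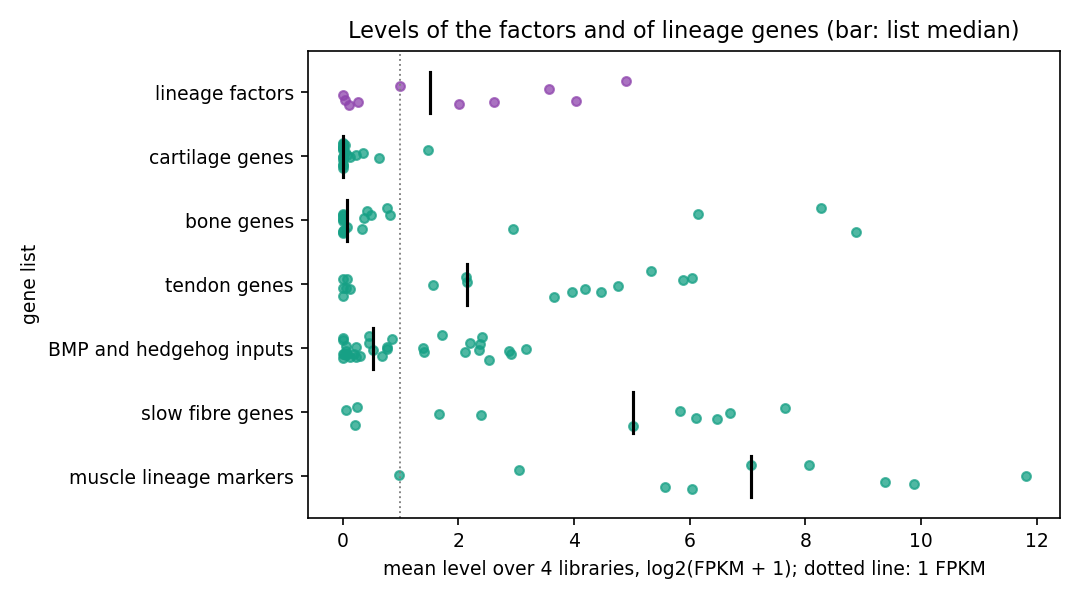
Mean level over 4 libraries as log2(FPKM + 1), with 1 point per gene, for the 10 lineage factors (purple) and 6 gene lists (green); black bars are list medians and the dotted line is 1 FPKM. Most cartilage genes lie at 0 while most muscle lineage markers lie above 1 FPKM.

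Upstream signals of skeletal lineages were measured through a list of 33 BMP and hedgehog genes, of which 12 were tested, 8 positive and 4 negative, with 0 called and a median log2 fold change of 0.087. Acvr1, a type I BMP receptor, was read at 5.24 and 4.51 FPKM with knockdown and 2.34 and 2.41 with control siRNA. Its groups lay apart, and its log2 fold change was 0.80 ± 0.19 (SE, limma adjusted p 0.566). Of the 12, 4 lay apart with knockdown higher, beside 22.1% of all tested genes, and 1 with knockdown lower, beside 16.3%. Smad7, an inhibitor of the pathway, was read at 2.28 and 2.46 FPKM with knockdown and 0.181 and 1.72 with control siRNA (limma adjusted p 0.698). The receptor Bmpr1a and the mediator Smad4 had log2 fold changes of -0.038 and 0.11, the protease Bmp1 had 0.24, and the activin antagonist Fst had -0.32. With 1 library left out, Bmp1 ranged from 0.034 to 0.45 and Fst from -0.51 to -0.14.

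Slow fibre genes, which Sox6 is known to repress in muscle, were listed beside it. Of 11 genes, 8 were tested, 3 positive and 5 negative, with 0 called and a median log2 fold change of -0.077. Tnnc1, slow troponin C, was read at 210.2 and 148 FPKM with knockdown and 225 and 215 with control siRNA. Tnni1, slow troponin I, was read at 119 and 79.6 FPKM with knockdown and 93.7 and 116 with control siRNA, so its groups overlapped. Casq2, a calcium-binding protein of the muscle calcium store, had a log2 fold change of -0.15, the slow troponin T gene Tnnt1 0.12 and the tropomyosin gene Tpm3 0.090. The limma adjusted p-values of the tested genes of this list lay between 0.719 and 0.956.

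The labelled cell type was checked against its markers. The summed level of 9 muscle lineage markers lay between 4887 and 5376 FPKM in knockdown and between 6087 and 6425 in control. It was led by Myog, with Myod1, Des and Chrna1 beside it. Myog had a mean of 3582 FPKM and Pax7 a mean of 0.975 FPKM, and how far the cells had differentiated was not tested. Of the 9 markers 8 were tested, 2 positive and 6 negative, with 0 called by limma and 1 at an unadjusted p under 0.05. Myog, which carries most of the sum, had a log2 fold change of -0.40 (limma adjusted p 0.607). Connective tissue cells of muscle were represented by 12 genes listed as fibro-adipogenic markers. These summed to 244 to 258 FPKM in knockdown and 249 to 267 in control. Almost all of that sum came from Gsn and Dpep1, and 7 of the 12 stayed under 1 FPKM in every library. Pdgfra, the defining receptor of such cells, was listed at 0 in 3 libraries and had 0.160 FPKM in control replicate 1. The cell source of the listed transcripts was not tested. Cd34 was read at 4.52 and 4.62 FPKM with knockdown and 1.36 and 1.17 with control siRNA (log2 fold change 1.30, limma adjusted p 0.265), and Dpep1 had a log2 fold change of -0.44 (limma adjusted p 0.523). Endothelial markers summed to at most 2.73 FPKM, mainly Tek, macrophage markers to at most 3.15, mainly Cd14, and Schwann markers to at most 1.53, and Kdr, Ptprc, Adgre1, Itgam and S100b were listed at 0 throughout. The part of other cell types in the values of the 10 factors was not tested. In bulk RNA, fewer cells of a type and less RNA per cell cannot be told apart.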

How the data were processed

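Per the labels' protocols, cDNA was made from polyadenylated RNA with the SMART-Seq v4 kit, sheared, built into Ovation Ultralow libraries and sequenced in pairs of 150 nt. The submitters' processing notes list StringTie 1.3.3, HISAT2 2.1.0, Trimmomatic 0.36, SAMtools 1.3, bcl2fastq 2.19 and build mm10, without roles. Neither an annotation release nor a strand setting is given in the sources used here. The authors deposited 1 FPKM value per gene and sample, a unit read from the values. Column sums were 317223 to 322496.

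The 10900 genes that averaged 1 FPKM or more were fitted by limma 3.58.1 (R 4.3.3) on log2(FPKM + 1), with a mean-variance trend, two-sided, Benjamini-Hochberg adjustment and a threshold of 0.05. In 10 simulated runs, 200 of these 10900 genes were shifted by 1 or 2 units of log2(FPKM + 1), which is 2-fold or 4-fold on FPKM + 1. Each gene was drawn with its own spread within groups. That spread was measured on 2 samples a group, so the recovery rates belong to the simulation and need not be those of these data. The fit recovered 19.3% of the 2-fold and 66% of the 4-fold shifts. Exons and coordinates came from GENCODE M21 (GRCm38), where 54409 identifiers matched and 37 did not, and promoter windows from RefSeq on GRCm38.p6. Reads per value used the FPKM of 1 covered base in genes with 1 exon, 1 transcript and no overlap, where at least 98.4% of low values were whole multiples within a tolerance of 0.1 of a step; such intervals and limits cover counting error only. Python 3.11.15, numpy 2.4.6, pandas 2.3.3 and matplotlib 3.10.9 were used for the rest.

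Replicate numbers share only a number: deviations of same-numbered libraries correlated at -0.02 over genes. The members and lists were chosen with earlier results of these data known. Named genes were all members; of each list, those past the threshold, the 4 tested genes of highest mean and the 2 of lowest p; the defining markers; and genes overlapping a member. Lists covered partners, cartilage, bone, tendon, BMP and hedgehog, slow fibre and marker genes. Alternatives were a replicate block, pseudocounts of 0.1 and 0.5, no filter, a filter at 5 FPKM, quantile normalization, median ratio scaling, limma without the trend, and each library left out.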

Additional observations from a re-analysis of the deposited data

How the results depend on the processing

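Under the 12 alternatives 0 of the tested factors passed the threshold, and 0 genes of the other lists did. Sox8 and Mkx fall below the filter at 5 FPKM and have no value there. Without the filter Sox5, Sox6 and Twist2 had log2 fold changes of 0.078, -0.13 and -0.19, each with a limma adjusted p of 0.818. Twist1, listed at 0 throughout, had no value in that fit either. The log2 fold change of Sox8 ranged from -0.59 to -0.34 and that of Runx1 from 0.038 to 0.21. Scx turned to -0.024 with quantile normalization and -0.021 with median ratio scaling, and Runx2 to -0.0058 with quantile normalization. With 1 library left out, the lone sample being assumed to vary like the other group, the ranges were -0.25 to 0.27 for Scx, -0.068 to 0.18 for Runx2, -0.20 to 0.040 for Sox9 and -0.83 to 0.49 for Mkx; Scx had -0.053 without control replicate 1. With a pseudocount of 0.1 FPKM Mkx had -0.72. The replicate block left the fold changes as they were, with an adjusted p of 0.764 for Sox8, and called 3 genes in all instead of 6; nothing shows that the numbers pair the samples. Without the filter limma called 0 genes (1508 had an unadjusted p under 0.05), and with 1 library left out 5 to 15. Limma without the trend called 4 genes. Of 540 values of 46 other tested genes, 516 kept their direction and 24 did not; apart from left-out libraries these were Spp1 (0.019), Tcf7l2 (-0.0045) and Runx2os1 (-0.037) with quantile normalization and Id2 (-0.021) with median ratio scaling. With 1 library left out, the ranges of the genes that turned were -0.077 to 0.69 for Cbfb, -0.38 to 0.046 for Id1, -0.13 to 0.051 for Bmpr1a, -0.34 to 0.042 for Des, -0.20 to 0.71 for Cd14, -0.073 to 0.30 for Tcf12, -0.083 to 0.10 for Id2, -0.099 to 0.23 for Id3, -0.020 to 0.018 for Spp1, -0.0019 to 0.13 for Bgn, -0.10 to 0.32 for Smad4, -0.39 to 0.19 for Tnni1, -0.27 to 0.011 for Tcf4, -0.51 to 0.054 for Matn3 and -0.17 to 0.51 for Supt3. A further 21 of the 46 kept their direction but moved over 1.5 times with 1 library left out. The cause of these changes was not tested. With 2 samples a group, 95% intervals, not adjusted for the number of genes, reached a median of 0.48 to either side of the estimate. In the simulation 19.3% of shifts of 1 unit of log2(FPKM + 1) passed the adjusted threshold, so most shifts of that size were missed there. At low levels a 2-fold change in FPKM is a smaller shift than this, and its recovery was not simulated.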

Other observations

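Sp7 and Msx1, transcription factors of the bone list, averaged under the filter with groups that did not overlap. Sp7 and Msx1 were picked after their values were seen. Among the 10900 genes over the filter, groups lay apart with knockdown higher in 22.1% and with knockdown lower in 16.3%. Sp7, osterix, which acts after Runx2 in bone formation, was read at 0.0418 and 0.112 FPKM with knockdown and 0.828 and 0.660 with control siRNA, at most the bases of 4.75 and 14.2 reads against 100.4 and 79.8. In the fit without the filter, over 24969 rows, the log2 fold change of Sp7 was -0.69 with a limma adjusted p of 0.734, so it did not pass. The homeobox gene Msx1 was read at 1.09 and 0.975 FPKM with knockdown and 0.564 and 0.459 with control siRNA, with an adjusted p of 0.818. Egr2, a relative of Egr1 on the tendon list, was read at 4.61 and 4.45 FPKM with knockdown and 1.82 and 2.66 with control siRNA (log2 fold change 0.78, limma adjusted p 0.607), opposite in sign to Egr1.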
